A study of Mus musculus with 8 samples.

Results

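The genes described here are the glucocorticoid receptor, its sister the mineralocorticoid receptor, and 8 genes around them: 2 chaperone partners of the receptor, 5 genes that glucocorticoids induce, and the enzyme that makes active hormone inside cells. They are Nr3c1, Nr3c2, Fkbp5, Fkbp4, Sgk1, Tsc22d3, Zbtb16, Mt1, Mt2 and Hsd11b1, taken by symbol from the 17613 genes of the deposited table. All 10 were found once and all 10 were among the 15902 genes tested. The libraries are of polyadenylated RNA from the brain of C57BL/6 mice, of which 4 carry the label wild type (WT) and 4 the label Uhrf2 KO, where Uhrf2 encodes a nuclear protein that recognises modified cytosine. The labels give no age, sex or time of day and do not say whether each library is a separate animal, so the tests below measure the spread between these libraries, which may be technical.

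Corticosterone, the main glucocorticoid of the mouse, enters cells and binds receptors that wait in the cytoplasm in a complex with heat shock protein 90 and immunophilin cochaperones. The bound receptor moves to the nucleus, where it binds palindromic DNA elements as a dimer and raises or lowers transcription of nearby genes. In brain the mineralocorticoid receptor binds the same hormone more tightly and is concentrated in hippocampus, while the glucocorticoid receptor is present in most cells and answers to the daily peak of the hormone and to stress.

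Library totals ran from 11891350 to 19773921 counts, and the members had between 320 and 3309 counts in a library. Levels are in CPM, the usual library-size scaled unit, after TMM (trimmed mean of M values). In the libraries labelled KO, Uhrf2 itself stood at 86.4 to 91.8 CPM and in those labelled WT at 47.7 to 58.9 CPM, the reverse of what the label of a knockout implies. Counts per gene do not show which part of the gene the reads came from, so every direction below is that of the labels. The libraries numbered 1 of both groups stood apart from the other 6 on the second principal component, at 20.9 and 13.1 against -9.02 to -2.49. Per1, a clock gene that glucocorticoids also induce, was at 67.8 and 68.3 CPM in those libraries and at 120 to 145 CPM in the others, a gene named after its values were seen.

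Among the 10 genes, Fkbp5 was the only one whose level differed between the groups at an adjusted p under 0.05, and it was higher in the libraries labelled KO. Sgk1, Mt1 and Mt2 had positive fold changes whose adjusted p missed that threshold. Both receptors, Fkbp4, Tsc22d3, Zbtb16 and Hsd11b1 had fold changes near 1 or intervals wide enough to hold no change. The member called was 1 of 10, where 1.43% of all tested genes were called in either direction and 1.14% were called higher. For 2 of the 10, Fkbp5 and Sgk1, the groups did not overlap, against 7.67% of all tested genes. Of the 10 log2 fold changes 7 were positive, with a median of 0.15, where 48% of all tested genes were positive and the median was -0.005. The 10 genes and the lists below were chosen with earlier results of these data known, so such comparisons are no test of them.

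**Figure D1:**
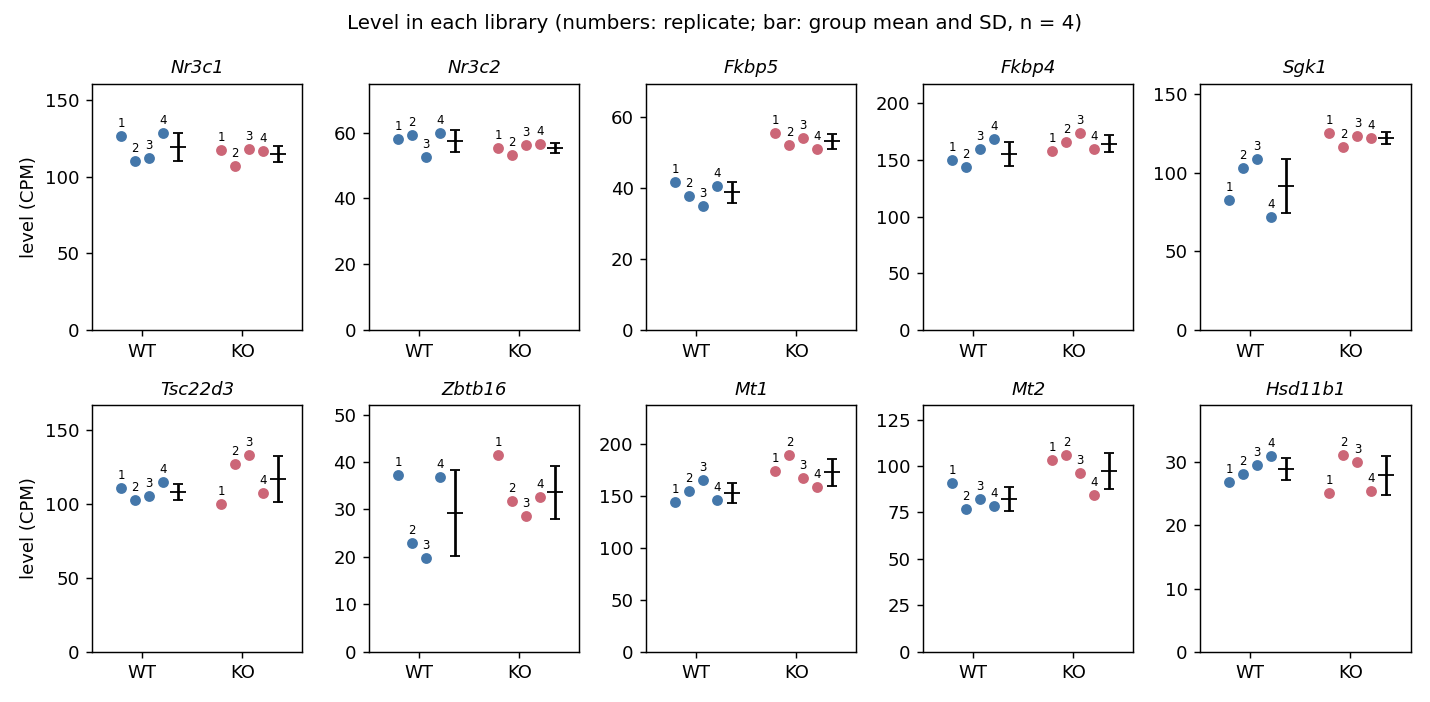
Level of each gene (CPM, from 0) in the 4 libraries labelled WT (blue) and the 4 labelled KO (red), each point marked with its replicate number, with the group mean and SD in black. Fkbp5 is at 51.0 to 55.6 CPM in every KO library and at 35.1 to 41.7 CPM in every WT library, and Sgk1 is spread over 72.0 to 109 CPM in WT and held within 117 to 125 CPM in KO.

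Nr3c1 encodes the glucocorticoid receptor, a ligand-gated transcription factor. It lies on chromosome 18 from 39410545 to 39519421 on GRCm38, on the minus strand. Its level was 126, 110, 112 and 129 CPM in WT libraries 1 to 4 and 117, 107, 118 and 117 CPM in KO libraries 1 to 4. The ranges overlapped, and the lowest library of all was KO 2. The fold change was 0.963 with a 95% interval of 0.890 to 1.04 (adjusted p = 0.748).

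Nr3c2 encodes the mineralocorticoid receptor (chromosome 8, 76899442 to 77245012, plus strand). It stood at 57.9, 59.1, 52.6 and 59.9 CPM in WT and at 55.2, 53.3, 56.3 and 56.6 CPM in KO libraries. Every KO library lay within the WT range, and the fold change was 0.966 with an interval of 0.896 to 1.04 (adjusted p = 0.76). Of its exons, 247 bases overlap the antisense transcript Gm10649, whose reads cannot be told apart from its own because the strand setting of the counts is not given. Per kilobase of the longest coding transcript, Nr3c1 was 1.91 ± 0.14 times the level of Nr3c2 in WT and 1.91 ± 0.05 times in KO libraries (SD, n = 4), and the libraries of the groups overlapped in this ratio.

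Hsd11b1 encodes the enzyme that regenerates active corticosterone from its inert form inside the cell (chromosome 1, 193221634 to 193264075, minus strand). Its level was 26.9, 28.2, 29.6 and 31.0 CPM in WT and 25.1, 31.2, 30.0 and 25.4 CPM in KO libraries. The KO libraries fell into a higher pair, 2 and 3, and a lower pair, 1 and 4, and both WT extremes lay between the KO extremes. The fold change was 0.967 with an interval of 0.867 to 1.08 (adjusted p = 0.856).

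Fkbp5 encodes FKBP51, an immunophilin that docks on heat shock protein 90 in the receptor complex and lowers the receptor's affinity for hormone. The hormone in turn induces Fkbp5, which forms a short feedback loop, and the transcript is a common readout of receptor activity. It lies on chromosome 17 from 28399094 to 28517527 on the minus strand, with no exonic overlap with another annotated gene. Its level was 41.7, 37.8, 35.1 and 40.5 CPM in WT libraries 1 to 4 and 55.6, 52.1, 54.1 and 51.0 CPM in KO libraries 1 to 4. Every KO library lay above every WT library, and the spread within each group was small, with a coefficient of variation of 7.68% in WT and 3.86% in KO. Fkbp5 rose 1.38-fold (log2 fold change 0.46, SE 0.06, interval 1.26- to 1.5-fold, adjusted p = 0.000206), and it ranked 25 by p among the 15902 tested genes. Over 17 alternative settings its log2 fold change ran from 0.42 to 0.50 and its adjusted p from 1.19e-08 to 0.0021, and it passed in all of them, also without both libraries numbered 1 (log2 fold change 0.48).

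The promoter window that RefSeq gives for Fkbp5 is shown because this gene carries the one call. It covers 250 bases upstream of the start site on GRCm38.p6, chr17:28486150-28486399, minus strand, and capitals would mark matches to the receptor motifs described with Sgk1.
Fkbp5: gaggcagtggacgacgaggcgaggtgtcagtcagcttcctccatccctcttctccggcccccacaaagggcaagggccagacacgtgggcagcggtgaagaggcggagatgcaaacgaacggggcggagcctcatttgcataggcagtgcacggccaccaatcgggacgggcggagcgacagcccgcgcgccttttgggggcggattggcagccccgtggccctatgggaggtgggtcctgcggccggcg
It holds no match to those letters. Its GC content was 68.0% and it held 23 CpG dinucleotides, where the median over 32851 promoter windows of mouse genes was 52.4% and 6. The start site used, 28486149, lies within the span of the gene given above, whose upstream end is 28517527. No match says nothing of receptor binding elsewhere in the gene, and the rest of the gene was not searched.

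Fkbp4 encodes FKBP52, the related immunophilin that takes the place of FKBP51 when hormone binds and couples the complex to transport toward the nucleus (chromosome 6, 128429735 to 128438677, minus strand). It stood at 150, 144, 159 and 168 CPM in WT and at 158, 166, 174 and 160 CPM in KO libraries. The groups overlapped, and the fold change was 1.06 with an interval of 0.983 to 1.14 (adjusted p = 0.549). Within each library, Fkbp5 per kilobase was 0.159, 0.151, 0.126 and 0.138 of Fkbp4 in WT and 0.202, 0.180, 0.179 and 0.184 of it in KO. This ratio of the opposing cochaperones was therefore higher in every KO library than in any WT library, at 0.186 ± 0.011 against 0.144 ± 0.015 (SD, n = 4), a description that follows from the rise of Fkbp5.

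**Figure D2:**
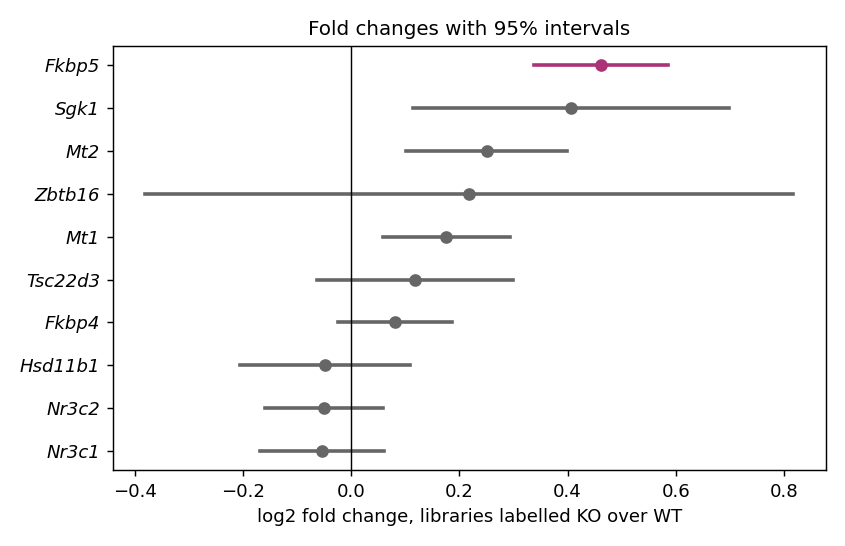
Log2 ratio of KO to WT libraries for each of the 10 genes, with 95% intervals that are not adjusted for the number of genes. Fkbp5 (purple) is the only one past an adjusted p of 0.05, while the intervals of Sgk1, Mt1 and Mt2 (grey) lie above 0 without passing.

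Sgk1 encodes a serum- and glucocorticoid-induced kinase that regulates ion channels and transporters, and its transcription also answers to neuronal activity, cell volume and growth factors (chromosome 10, 21882184 to 21999903, plus strand). It stood at 82.7, 103, 109 and 72.0 CPM in WT libraries 1 to 4 and at 125, 117, 124 and 122 CPM in KO libraries 1 to 4. Every KO library was above every WT library, but WT libraries 1 and 4 were far below WT 2 and 3. The coefficient of variation was 18.9% in WT and 3.08% in KO libraries. The fold change was 1.33 with an interval of 1.08 to 1.62 (log2 fold change 0.41, SE 0.125, adjusted p = 0.233). It passed in none of the 17 alternatives, at an adjusted p from 0.07 without WT replicate 4 to 0.59 without both libraries numbered 1.

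RefSeq gives 6 promoter windows for Sgk1, and 1 of them holds the full element that the receptor dimer binds. The search used AGAACA and its reverse complement TGTTCT, the full palindrome in which the first is followed 3 bases later by the second, and a looser form, GNACA followed 3 bases later by TGTNC, which contains the full one, on both strands. The full palindrome was found in 3 of 32851 windows (0.00913%), the looser form in 127 (0.387%) and the 6-letter word alone in 16.1%. The window at chr10:21993640-21993889, plus strand, is shown for that element, with the matches in capitals.
Sgk1: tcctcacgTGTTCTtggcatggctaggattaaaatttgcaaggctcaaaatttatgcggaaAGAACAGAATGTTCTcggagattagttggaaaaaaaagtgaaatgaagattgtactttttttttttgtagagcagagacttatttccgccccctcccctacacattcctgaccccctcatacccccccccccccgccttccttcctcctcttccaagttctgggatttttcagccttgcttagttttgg
The full palindrome runs from 189 to 175 bases before this start site, and a further TGTTCT lies at 242 to 237. A match is a description of the letters and not a measured binding site, and the counts per gene do not show which of the 6 start sites the reads came from.

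Tsc22d3 encodes GILZ, a leucine zipper protein that glucocorticoids induce strongly and that mediates some of their anti-inflammatory actions (chromosome X, 140539528 to 140600659, minus strand). Its level was 110, 102, 105 and 114 CPM in WT and 99.9, 127, 133 and 107 CPM in KO libraries. KO libraries 2 and 3 were above every WT library, KO 1 was below every one, and KO 4 lay among them. The fold change was 1.08 with an interval of 0.957 to 1.23 (adjusted p = 0.615). Unlike Sgk1, the wider spread was in KO, with a coefficient of variation of 13.4% against 4.97% in WT.

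Zbtb16 encodes PLZF, a zinc finger repressor that is among the transcripts glucocorticoids raise most in many tissues, and that also marks certain neuronal populations (chromosome 9, 48654297 to 48836222, minus strand). Its level was 37.2, 23.0, 19.8 and 36.8 CPM in WT and 41.5, 31.7, 28.6 and 32.5 CPM in KO libraries. It was the most variable of the 10 genes in both groups, with WT libraries 1 and 4 high and 2 and 3 low. The fold change was 1.16, but its interval of 0.768 to 1.76 spanned a fall and a rise (adjusted p = 0.8), so the depth and number of libraries did not settle its direction.

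The metallothioneins Mt1 and Mt2 encode small cysteine-rich proteins that bind zinc and copper, are abundant in astrocytes, and are induced by metals, oxidants and glucocorticoids. They are neighbours on chromosome 8, Mt2 from 94172664 to 94173568 and Mt1 from 94179082 to 94180327, both on the plus strand and 5513 bases apart. Mt1 stood at 144, 154, 165 and 145 CPM in WT and at 174, 189, 167 and 158 CPM in KO libraries. Mt2 stood at 91.0, 76.6, 82.4 and 78.3 CPM in WT and at 103, 106, 96.2 and 84.3 CPM in KO libraries. In both genes 3 KO libraries were above every WT library, and KO 4 was within the WT range.

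The fold change was 1.13 for Mt1 (interval 1.04 to 1.23, adjusted p = 0.164) and 1.19 for Mt2 (interval 1.07 to 1.32, adjusted p = 0.11). Neither passed in the edgeR fit of all libraries with group as the only term. Mt2 did pass in that fit without KO replicate 4 (adjusted p = 0.0161) or without WT replicate 1 (0.0449), and with DESeq2 (0.0425). Per kilobase, the ratio of Mt2 to Mt1 was 1.15 ± 0.14 in WT and 1.20 ± 0.06 in KO libraries (SD, n = 4), and the groups overlapped. Reads that match both paralogs may have been assigned in ways not given here, and 432 bases of the exons of Mt2 overlap the antisense transcript Gm45774.

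The RefSeq windows upstream of both are shown because they share one chromosomal cluster and had fold changes of like size. They lie at chr8:94178839-94179088 for Mt1 and chr8:94172368-94172617 for Mt2, plus strand. Capitals mark the receptor forms named above and the core of the metal response element, TGCGCNC or TGCACNC on either strand.
Mt1: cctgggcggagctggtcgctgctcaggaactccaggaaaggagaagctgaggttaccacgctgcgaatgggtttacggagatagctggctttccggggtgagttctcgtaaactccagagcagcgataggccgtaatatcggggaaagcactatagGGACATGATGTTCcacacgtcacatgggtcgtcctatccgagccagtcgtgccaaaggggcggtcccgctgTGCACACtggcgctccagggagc
Mt2: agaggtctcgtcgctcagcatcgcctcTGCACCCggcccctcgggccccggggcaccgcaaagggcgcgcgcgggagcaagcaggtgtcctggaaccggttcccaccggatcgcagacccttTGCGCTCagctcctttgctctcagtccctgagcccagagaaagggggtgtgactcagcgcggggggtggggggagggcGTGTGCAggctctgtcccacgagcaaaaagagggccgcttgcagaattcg
Upstream of Mt1 there was 1 looser receptor form, from 94 to 82 bases before the start site, and 1 TGCACNC. In the window upstream of Mt2 there was no receptor form, 1 TGCGCNC and 2 TGCACNC. The start site used for that window, 94172618, lies upstream of the start of Mt2 given above, 94172664. The bases between them were not searched. The metal words are common, with TGCGCNC in 12.5% and TGCACNC in 10.4% of all windows. Windows were found for 8 of the 10 genes, and those of Fkbp4, Nr3c2, Tsc22d3 and Hsd11b1 held neither the full nor the looser receptor form.

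On the scale of CPM per kilobase of the longest coding transcript, which allows genes to be compared, the members spanned a wide range in WT libraries. Mt2 and Mt1 were highest, at 161 ± 12.6 and 140 ± 9.04 (SD, n = 4), and their ranges met at 150 to 152. Fkbp4 followed at 70.1 ± 4.89, Tsc22d3 at 54.7 ± 2.72 and Sgk1 at 29.6 ± 5.60, each below the range of the one before. Nr3c1 and Hsd11b1 were next, at 18.6 ± 1.46 and 17.8 ± 1.09, and did not differ beyond their spread. Fkbp5, Nr3c2 and Zbtb16 were lowest, at 10 ± 0.77, 9.70 ± 0.56 and 5.71 ± 1.78, where the first and the second overlapped in WT. In KO libraries Fkbp5 was at 13.8 ± 0.53 and Nr3c2 at 9.35 ± 0.25, with Fkbp5 higher in every library. The order of the metallothioneins rests on the transcript lengths used, 0.511 kb for Mt2 and 1.085 kb for Mt1.

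The genes that glucocorticoids induce did not rank the libraries in one order. Within WT, Sgk1 was low in libraries 1 and 4, at -0.13 and -0.33 from the group mean of log2 CPM, where Zbtb16 was high, at 0.40 and 0.39. In libraries 2 and 3 the signs were the other way round for both. Fkbp5, Tsc22d3 and Nr3c1 had the signs of Zbtb16 in all 4 WT libraries, with smaller deviations, and Mt1 had those of Sgk1. Within KO, Tsc22d3 and Hsd11b1 shared a pattern, with libraries 2 and 3 above the group mean (0.13 and 0.20 for Tsc22d3, 0.17 and 0.11 for Hsd11b1) and 1 and 4 below it. Fkbp5, Nr3c1, Nr3c2, Fkbp4 and Mt1 each deviated by at most 0.14 in any library. No library was the highest of its group in more than 5 of the 10 genes, which was WT 4.

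**Figure D3:**
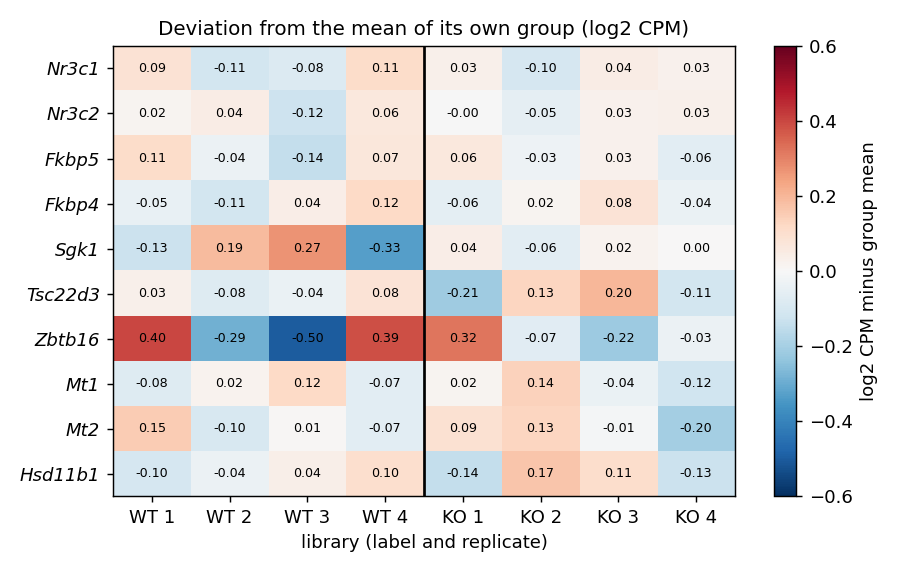
Deviation of log2 CPM from the mean of the library's own group, for the 10 genes (rows) and 8 libraries (columns), red above and blue below. The opposite signs of Sgk1 and Zbtb16 in the 4 WT libraries and the shared pattern of Tsc22d3 and Hsd11b1 in the 4 KO libraries are visible. In WT, Fkbp5, Tsc22d3 and Nr3c1 have the signs of Zbtb16, and Mt1 has those of Sgk1. Fkbp5, Nr3c1, Nr3c2, Fkbp4 and Mt1 stay within 0.14 of their group means.

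Genes most like 4 of the members across the 8 libraries were found by the root mean square difference of centred log2 CPM. For Fkbp5, which itself varied by 0.241 on that measure, they were Mapk4, an atypical MAP kinase (0.065), Ppm1h, a phosphatase (0.071), and Serpina3n, an acute phase serpin of reactive astrocytes (0.078). Mapk4 was at 80.5 ± 3.15 CPM in WT and 110 ± 5.93 CPM in KO (SD, n = 4), a difference that the likeness itself selects. For Sgk1, which varied by 0.277, they were Hmga1 (0.104), the retinoic acid receptor gene Rara (0.125) and Evpl (0.131). For Tsc22d3 (0.138) they were Cbfa2t3 (0.040), Terf1 (0.049) and Ppp1r3g (0.050), and for Mt2 (0.167) they were Smim3 (0.053), the inositol kinase gene Itpk1 (0.058) and the potassium channel gene Kcng4 (0.065). No gene was among the nearest of more than 1 member.

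Beyond the 10, other genes known to be induced by glucocorticoids held 2 that rose and 0 that fell among 44 tested, with 42 that did not pass, where 1.43% of all tested genes were called. The median log2 fold change of the 44 was 0.07, and 29 of them (65.9%) were positive. Cdkn1a, the cell cycle inhibitor p21, which p53 also induces, rose from 22.9 ± 2.57 to 33.6 ± 4.4 CPM (SD, n = 4, adjusted p = 0.00693). Cebpb, a transcription factor of the acute phase and of energy metabolism, rose from 4.54 ± 0.32 to 6.58 ± 0.68 CPM (adjusted p = 0.0273). The groups did not overlap in either gene, nor in Arl4d and Rasd1, whose adjusted p was 0.148 and 0.173 (Rasd1 was named after its values were seen). These 4 of 44 stand beside the 7.67% of all tested genes whose groups did not overlap. Cebpb missed the threshold without any 1 of WT replicates 1, 3 and 4 and KO replicates 3 and 4 (adjusted p of 0.0645, 0.108, 0.0537, 0.121 and 0.0733) and with GC content and length trends removed (0.0567).

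Rhob, a small GTPase gene that many stimuli induce, was at 226 ± 10.5 CPM in WT and 253 ± 17.4 CPM in KO (SD, n = 4, adjusted p = 0.133). Klf9, a zinc finger factor that the receptor induces directly in neurons, stood at 149, 131, 131 and 134 CPM in WT and at 184, 149, 173 and 152 CPM in KO libraries. Its adjusted p was 0.0635 with all libraries, and it passed without both libraries numbered 1 (0.0191), without WT replicate 1 (0.0314), without KO replicate 2 (0.0149), with GC content and length trends removed (0.0337) and with DESeq2 (0.00929). Plin4, which encodes a lipid droplet coat protein, was at 17.3, 7.42, 10 and 7.32 CPM in WT and 13.7, 16.6, 16.4 and 14.0 CPM in KO libraries. Its highest value of all was in WT 1, and its adjusted p was 0.448 with that library and 0.000723 without it. Plin4 was named after its values were seen.

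Classical readouts of the hormone were among those that did not pass. Dusp1, a MAP kinase phosphatase, had a log2 fold change of -0.09 (SE 0.26), Per1 one of -0.07 (SE 0.32), Pdk4, a mitochondrial kinase, one of -0.06 (SE 0.09), and Ddit4, an inhibitor of mTOR signalling, one of 0.07 (SE 0.07). Nfkbia, the inhibitor of NF-kappaB, had 0.12 (SE 0.11), Errfi1 0.12 (SE 0.06), Hif3a 0.18 (SE 0.22) and Sult1a1 0.06 (SE 0.10). These genes were chosen after their values were seen, as textbook targets. The intervals of Dusp1, Per1 and Hif3a were wide, so a change the size of that of Fkbp5 was inside them. The upper bounds of Pdk4 (0.12), Ddit4 (0.21), Errfi1 (0.24), Sult1a1 (0.28) and Nfkbia (0.35) were below the 0.46 of Fkbp5.

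**Figure D4:**
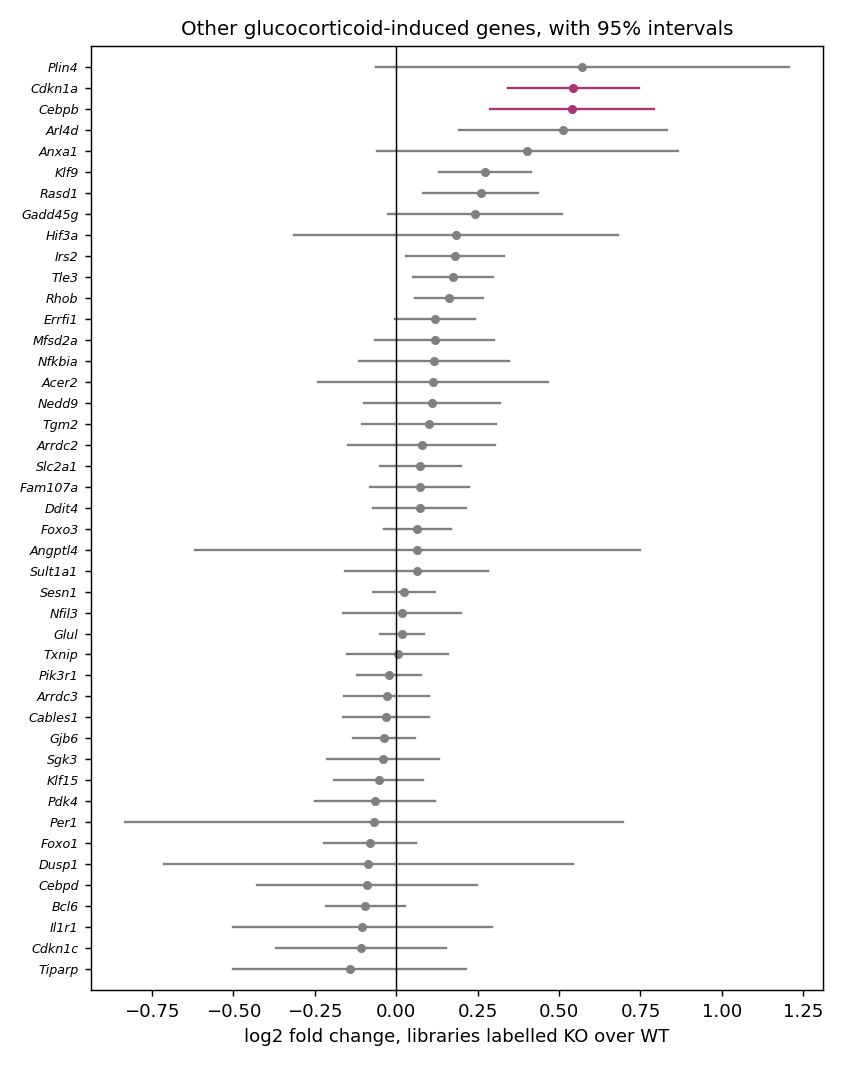
Log2 fold change of KO over WT libraries with 95% intervals for the 44 tested genes of the wider list of glucocorticoid-induced genes, ordered by size. Cdkn1a and Cebpb (purple) passed an adjusted p of 0.05, and 29 of the 44 lie to the right of 0.

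Of 22 receptor chaperones, among them the heat shock protein 90 genes that hold the receptor in its hormone-binding form, none was called by edgeR, DESeq2 or limma-voom, with 5 at an unadjusted p under 0.05 by edgeR. Over all tested genes 12.6% had such a p, the share against which this and the counts of the lists below are to be read. Positive log2 fold changes were found for 20 of the 22, and the median was 0.08. In WT and then KO libraries, Hsp90ab1 was at 1246 ± 54.9 and 1350 ± 64.8 CPM, Hsp90aa1 at 493 ± 24.8 and 539 ± 31.6 CPM and Hspa4 at 271 ± 14.8 and 299.9 ± 17.6 CPM (SD, n = 4), with adjusted p of 0.212, 0.214 and 0.181. With GC content and length trends removed, Hsp90aa1 and Hspa4 passed (adjusted p of 0.0209 and 0.0349).

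Of 23 coactivators and corepressors none was called by edgeR or limma-voom and 1 by DESeq2, and 3 had an unadjusted p under 0.05 by edgeR. Among them Nr2f2 had a log2 fold change of -0.20 (SE 0.07) and Trim24 one of -0.13 (SE 0.055). Of 15 partners and targets of the SGK1 kinase none was called by edgeR or limma-voom, with 2 at an unadjusted p under 0.05. Nedd4l, the ubiquitin ligase that SGK1 phosphorylates, stood at 126 ± 7.38 and 145 ± 7.71 CPM (adjusted p = 0.0658), and passed with DESeq2 (0.031), without WT replicate 1 (0.038), without KO replicate 2 (0.0165) and with GC content and length trends removed (0.00464). Next were Scnn1a, an epithelial sodium channel subunit, at 0.27 (SE 0.13) on the log2 scale, and the kinase gene Wnk1, at -0.08 (SE 0.04).

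Among genes of the stress axis, 12 were tested and none was called by edgeR, DESeq2 or limma-voom, with 1 at an unadjusted p under 0.05. That was Crhbp, the binding protein of corticotropin-releasing hormone, at 16.9 ± 1.83 and 19.7 ± 2.09 CPM (SD, n = 4, adjusted p = 0.293), followed by the receptor gene Gpr83 at a log2 fold change of 0.10 (SE 0.067) and the oxytocin gene Oxt at one of 0.41 (SE 0.26). Of 9 genes of steroid metabolism and transport none was called by these tools, with 2 at an unadjusted p under 0.05. Abcb1a, an efflux pump of the vessel wall that limits entry of some corticosteroids to the brain, stood at 37.1 ± 1.45 and 33.0 ± 2.40 CPM (adjusted p = 0.249), Hsd17b10 at 20.9 ± 1.08 and 23.4 ± 1.87 CPM, and H6pd, which supplies the cofactor of the Hsd11b1 enzyme, at 12.1 ± 0.82 and 13.6 ± 1.23 CPM.

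Of 14 other genes of the metal response none was called by these 3 tools, with 3 at an unadjusted p under 0.05. The zinc transporter gene Slc39a8 had a log2 fold change of -0.37 (SE 0.12), Slc30a1, another, one of 0.15 (SE 0.07), and the quinone reductase gene Nqo1 one of -0.28 (SE 0.10). Of 16 other immunophilins none was called by these tools, with 1 at an unadjusted p under 0.05, which was Fkbp1a (log2 fold change 0.10, SE 0.04), and Fkbp8 had a log2 fold change of 0.07 (SE 0.04).

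In bulk tissue, fewer cells of a type and less RNA per cell cannot be told apart, so lists of cell type markers were read beside the members. Of 18 astrocyte markers, which bear on Mt1 and Mt2, none was called by edgeR or limma-voom (1, Slc1a3, by DESeq2, and 3 at an unadjusted p under 0.05). Positive fold changes were found for 6 of the 18, and those 3 all had negative log2 fold changes. Slc1a3 was lower in every KO than in any WT library. The summed level of the 18 was 8840 to 8980 CPM in WT and 8450 to 9010 CPM in KO libraries. Of 18 oligodendrocyte markers, cells that hold much of the Sgk1 message in brain, none was called by the 3 tools (5 at an unadjusted p under 0.05), 2 of the 18 had positive fold changes, and the sums were 8480 to 8860 and 7930 to 8950 CPM. Of 18 endothelial and mural markers 8 had an unadjusted p under 0.05, 4 had positive fold changes, 4 were lower in every KO than in any WT library, and the median log2 fold change was -0.12. Their summed level was 651 to 705 CPM in WT and 613 to 662 CPM in KO libraries. Of these markers 1 fell, Slco1c1 (adjusted p = 0.0321), which missed the threshold when any 1 of 6 libraries was left out (up to 0.13) and with GC content and length trends removed (0.086). Of 17 hippocampal markers, the region richest in Nr3c2, Wfs1 rose and Dsp fell, 5 had an unadjusted p under 0.05, and 4 had positive fold changes. In every KO library 1 was higher and 3 were lower than in any WT library, and the median log2 fold change was -0.12. The sums, which include Wfs1 at means of 104 and 144 CPM, were 760 to 829 and 765 to 863 CPM. No listed marker of these types was at 0 in all libraries, and the part of these cells in the results above was not tested.

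Of 25 genes of neuronal activity, 6 rose (Egr3, Vgf, Gadd45b, Inhba, Nptx2 and Rheb), 0 fell and 19 did not pass, where 1.14% of all tested genes were called higher. Positive fold changes were found for 15 of the 25. Among the rest were the early response genes Fos, at a log2 fold change of -0.25 (SE 0.23), Npas4, at -0.54 (SE 0.30), and Egr1, at -0.12 (SE 0.15), named after their values were seen. The summed level of the list, which includes those that rose, was 1400 to 1770 CPM in WT and 1800 to 2020 CPM in KO libraries, with no overlap. The list was chosen with earlier results of these data known, so neither the number called nor the sum is a test of it. Rheb missed the threshold when any 1 of 7 libraries was left out (highest adjusted p 0.159) and without both numbered 1 (0.148), where 7 of the 25 passed. Nptx2 missed it when any 1 of 6 libraries was left out (up to 0.128). The lowest p values among those that did not pass belonged to Fosb, Scg2 and Ptgs2 (adjusted p of 0.11, 0.111 and 0.17). Sgk1, Cebpb and Cdkn1a can also be induced by activity or by cell stress, and the part of neuronal activity in their levels was not tested.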

How the data were processed

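Per the labels' protocols, brain RNA was extracted with Trizol, cleaned on columns and made into stranded mRNA libraries. The authors deposited 1 unscaled estimated count for each gene and library, of which 91.5% were whole within 0.001. TopHat2 2.0.9, edgeR and the GRCm38 (mm10) build are named, without their roles, per the submitters' processing notes. Neither the counting program nor its strand setting is given in the sources used.

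Counts were rounded, filtered by filterByExpr and scaled by TMM. KO was set against WT with edgeR 4.0.16 (R 4.3.3), robust quasi-likelihood, group as the only term, with Benjamini-Hochberg adjustment over 15902 genes at 0.05. SE came from the fold change and its F statistic. Alternatives used DESeq2 1.42.0, limma 3.58.1, other scalings and filters, a replicate block, 7 libraries at a time and, added after seeing the data, GC content and length trends removed and both libraries numbered 1 left out.

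Library totals gave 3 counts a value of 0.152 to 0.252 CPM. No libraries of a group were alike to within counting noise (chi-square per degree of freedom 2.43 to 4.91), so all 8 were kept. The fit was tested on simulated data.

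Positions are from GENCODE M21 and promoter windows from RefSeq (GRCm38.p6). Members and gene lists were chosen with earlier results of these data known. The text names all 10 members, from each pathway list the genes past the threshold and the 3 lowest p among the others, at most 3 called genes of each marker list, and the 3 genes most like Fkbp5, Sgk1, Tsc22d3 and Mt2 with a mean of at least 5 CPM. Per1, Plin4, Rasd1, Slc1a3, Fos, Npas4, Egr1 and the textbook targets that did not pass are outside that rule and were named after their values were seen. Of the genes that rule selects, 2 are not reported here.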

Additional observations from a re-analysis of the deposited data

Results flagged for a closer look

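In the libraries labelled KO, the glucocorticoid receptor gene Nr3c1 was at 107 CPM in replicate 2 and at 117 to 118 CPM in the other 3, a gap of 0.877 of the group's range, above Dixon's 95% critical value for 4 samples. It was the 1 gap of this size among the 20 sets of 4 values of the members, and chance gives about 1 in 20.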

How the results depend on the processing

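Over 17 alternatives, the 10 members gave 170 fold changes, of which 165 kept their direction and their side of the threshold, 5 passed where the reported fit did not (4 of Mt2 and 1 of Mt1), and 0 changed direction. Members past the threshold numbered 1 as reported, 2 with DESeq2, 3 with the replicate block and 1 to 2 with 1 library left out, and Fkbp5 was among them each time. Of the other glucocorticoid-induced genes, 2 passed as reported, 4 with DESeq2 (Arl4d, Cdkn1a, Cebpb and Klf9), 5 with the replicate block, 4 without both libraries numbered 1 (Cdkn1a, Cebpb, Klf9 and Plin4) and 1 to 3 with 1 library left out, with Cdkn1a in all of these. Across all genes, 228 passed as reported, 495 with the replicate block and 110 to 324 with 1 library left out, at 110, 130 and 146 without WT replicate 3, KO replicate 3 and KO replicate 4. The cause of these shifts was not tested. The log2 fold change of Ppp1r3g, 0.04 as reported, ran from -0.021 to 0.102 with 1 library left out.

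Samples with the same replicate number correlated in their deviations from the group means at 0.208, 0.077, 0.024 and 0.067 for numbers 1 to 4. The highest correlation with another number was -0.042, 0.11, 0.11 and 0.043. Numbers 1 and 4 thus correlated best with their own number, and numbers 2 and 3 did not. The numbers were not taken as pairs in the reported fit, and whether libraries of the same number share a factor was not tested. With the replicate block Mt1 and Mt2 passed (adjusted p of 0.0384 and 0.0115). Nptx2 missed the threshold with it (0.0894). Lcn2, of the wider list, was in the table but too low to be tested.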
